A study of Mus musculus with 9 samples.

Results

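Glycolytic enzymes were described here as the 10 genes Hk1, Hk2, Pfkl, Pfkm, Pfkp, Aldoa, Pgk1, Eno1, Pkm and Ldha, taken by name from a deposited table of 21899 genes. The 10 names matched 11 rows, because Aldoa is listed under a pair of gene identifiers. The cells were N2a (Neuro-2a), a mouse neuroblastoma line labelled as brain neuroblasts, carrying a lentiviral hairpin from the pLKO.1-puromycin vector. The control group, shlucif, held 3 libraries with a hairpin against luciferase, and the Arf1-deficient cells held 3 libraries with the hairpin shArf1-1 and 3 with shArf1-2. No other treatment was labelled in any group. N2a is a transformed line, and a hairpin lowers its target without removing it. Nothing in the labels says that the 3 libraries of a group came from separate cultures, so p-values measure the spread between these libraries, which may be technical.

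Glycolysis splits glucose into pyruvate in the cytosol and yields ATP and NADH on the way. Hexokinases trap glucose as its phosphate, phosphofructokinases commit it to the pathway, and aldolase cleaves the sugar. Phosphoglycerate kinase, enolase and pyruvate kinase carry out the lower steps, and lactate dehydrogenase turns pyruvate into lactate while restoring NAD+. Several steps have isoenzymes encoded by separate genes, and many of these genes are known targets of the hypoxia-inducible factor Hif1a and of Myc.

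Of the 10 enzymes, 8 were lower and 1 was higher in Arf1-deficient cells by edgeR's quasi-likelihood test, called where the p adjusted by Benjamini and Hochberg was under 0.05. Across the 12448 genes tested, 32.9% were lower and 31.6% were higher by the same rule. Hk1, Hk2, Pfkm, Pfkp, Aldoa, Pgk1, Eno1 and Pkm fell, though Pkm kept its call in only 6 of 12 other settings of the analysis. The largest changes were in Pfkp, which fell by 33.5%, and Aldoa, which fell by 29.6%. Ldha, the last enzyme of the route, rose by 28.5%, and Pfkl did not pass the test. The median log2 fold change was -0.22 over the 10 enzymes and 0.0033 over all genes tested. The changes were modest, since 8 of the 9 enzymes called changed by less than 0.54 on the log2 scale, the median size among all 8027 genes called.

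The libraries held between 11182479 and 15594615 counts. Arf1, the targeted gene, averaged 324 ± 6.72 FPKM in shlucif cells, 128 ± 1.73 in shArf1-1 cells and 165 ± 6.92 in shArf1-2 cells (SD, n = 3 each). FPKM is the read count scaled to listed gene length and to the library's total count. The log2 fold change of Arf1 was -1.21 (standard error 0.09, edgeR adjusted p = 6.05e-08) and was 0.34 smaller in size with shArf1-2 than with shArf1-1. The 14 sympathetic neuroblast markers summed to between 469 and 487 FPKM with shlucif and between 839 and 1047 FPKM in Arf1-deficient libraries, and 11 of the 12 tested were higher. Nefm, a neurofilament, was at 0 counts in every library, while Phox2a and Chgb were counted in each. The 14 macrophage and microglia markers summed to between 199 and 238 FPKM with shlucif and between 0.693 and 1.17 FPKM in Arf1-deficient libraries. All 12 of those tested were lower, and Aif1, Itgam, Ctss, Cx3cr1 and Spi1 were at 0 counts in all 6 Arf1-deficient libraries. Of 10 fibroblast markers, 4 were tested and 2 were lower, with sums between 7.07 and 7.24 FPKM with shlucif and between 2.21 and 3.62 FPKM in Arf1-deficient libraries. In bulk RNA, fewer cells of a type and less RNA per cell cannot be told apart. The part of these markers in the changes of the glycolytic enzymes was not tested.

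**Figure D1:**
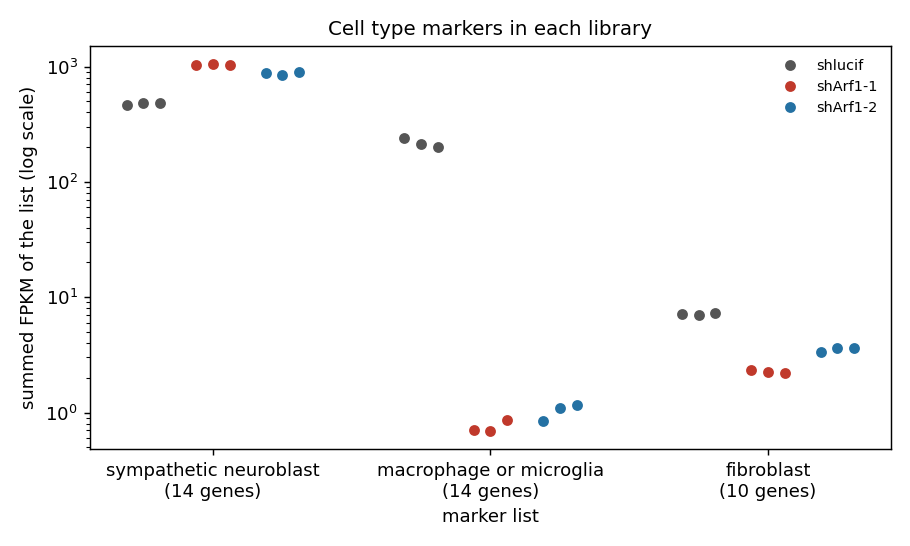
Summed FPKM of 3 lists of cell type markers (vertical axis, log scale) in each of the 9 libraries, with points coloured by hairpin. The macrophage and microglia markers sit between 199 and 238 FPKM with shlucif and at 1.17 FPKM or less in every Arf1-deficient library.

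The hairpin targets are shown to mark which transcript was lowered. Both lie in the coding sequence of Arf1 (GRCm38, chromosome 11, minus strand) and are also held by transcripts of AC127331.2, and that of shArf1-2 by Gm19587. The shArf1-1 target is in exon 3 at chr11:59213222-59213242 and the shArf1-2 target is in exon 2 at chr11:59213386-59213406. None of the 11 rows of the glycolytic enzymes holds either run of 21 bases in its annotated transcripts.
shArf1-1: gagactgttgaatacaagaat
shArf1-2: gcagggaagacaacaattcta

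Ldha was the most abundant of the 10 in each group, at 314 ± 12.7 FPKM (SD, n = 3) with shlucif. With shlucif it was followed by Aldoa, Pkm, Eno1, Pgk1, Pfkm, Hk1, Pfkp, Pfkl and Hk2, the last at 16.8 ± 0.237 FPKM (SD, n = 3). In that order Eno1 and Pgk1 overlapped, as did Pfkp and Pfkl, and each other pair of neighbours was separate in its 3 libraries. Pkm stood above Aldoa in both Arf1-deficient groups, although their values overlapped with shArf1-2. The listed lengths run from 2244 bases for Pgk1 to 13401 bases for Pfkp, and FPKM levels between genes depend on them.

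**Figure D2:**
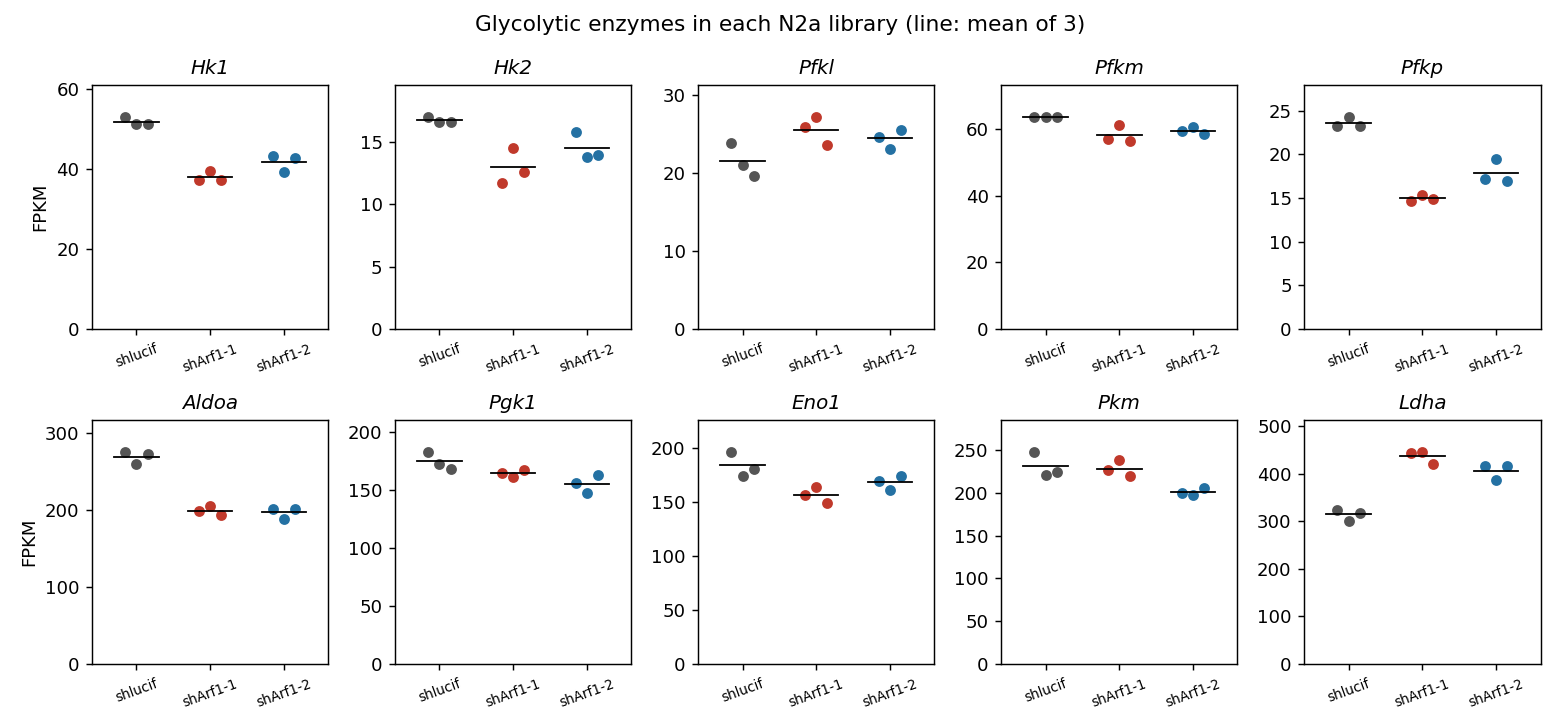
FPKM of each enzyme (vertical axis, from 0) in the 9 libraries, grouped by hairpin on the horizontal axis. Each point is 1 library and each line is the mean of 3. Ldha lies higher in all 6 Arf1-deficient libraries, while Hk1, Hk2, Pfkm, Pfkp, Aldoa, Pgk1 and Eno1 lie lower in all 6.

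Groups that do not overlap were counted on library-scaled counts normalised by TMM, the trimmed mean of M values. In 7 of the 10 enzymes all 6 Arf1-deficient libraries lay below all 3 shlucif libraries, against 30.1% of all genes tested. Ldha alone among the 10 lay above in all 6, against 27.9% of all genes tested. Pfkl and Pkm overlapped between the groups, although their 6 Arf1-deficient values were all above the shlucif mean for Pfkl and all below it for Pkm.

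The promoter windows of Ldha and of the 3 enzymes with the largest falls are printed because these 4 genes moved most and in opposite directions. Each window runs from 250 bases before to 50 bases after a RefSeq transcription start in GRCm38.p6, 5′ to 3′ on the gene's strand. Capitals mark ACGTG and GCGTG, the core of the hypoxia response element, and CACGTG, an E-box that Myc and Max bind, on either strand and with overlapping sites merged. Where a gene has several starts, the window with the most capital stretches is given, and for Aldoa the earliest listed of equals. The Ldha window lies at chr7:46845554-46845853 on the plus strand. The others lie on the minus strand, at chr13:6648722-6649021 for Pfkp, chr7:126799205-126799504 for Aldoa and chr10:62340372-62340671 for Hk1.
Ldha: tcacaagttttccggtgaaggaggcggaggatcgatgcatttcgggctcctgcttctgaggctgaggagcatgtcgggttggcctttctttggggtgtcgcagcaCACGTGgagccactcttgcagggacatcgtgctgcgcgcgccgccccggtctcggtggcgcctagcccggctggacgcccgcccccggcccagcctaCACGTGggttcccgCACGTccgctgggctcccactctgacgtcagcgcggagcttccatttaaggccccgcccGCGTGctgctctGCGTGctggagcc
Pfkp: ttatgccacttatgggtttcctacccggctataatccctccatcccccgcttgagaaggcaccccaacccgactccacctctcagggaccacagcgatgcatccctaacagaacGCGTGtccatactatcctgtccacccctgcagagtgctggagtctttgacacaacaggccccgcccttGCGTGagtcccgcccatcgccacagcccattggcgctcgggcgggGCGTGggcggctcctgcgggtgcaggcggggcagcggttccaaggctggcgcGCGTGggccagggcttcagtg
Aldoa: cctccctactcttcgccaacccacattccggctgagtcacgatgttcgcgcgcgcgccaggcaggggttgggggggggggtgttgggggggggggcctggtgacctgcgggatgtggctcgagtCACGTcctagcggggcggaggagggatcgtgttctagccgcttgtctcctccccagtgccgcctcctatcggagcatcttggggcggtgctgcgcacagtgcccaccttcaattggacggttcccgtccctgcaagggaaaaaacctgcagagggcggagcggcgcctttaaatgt
Hk1: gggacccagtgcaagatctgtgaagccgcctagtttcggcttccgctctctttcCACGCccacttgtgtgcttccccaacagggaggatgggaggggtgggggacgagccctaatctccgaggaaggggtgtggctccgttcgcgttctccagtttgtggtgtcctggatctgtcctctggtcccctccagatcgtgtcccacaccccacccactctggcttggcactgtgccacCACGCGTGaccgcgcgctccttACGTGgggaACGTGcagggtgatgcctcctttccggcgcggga

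Ldha, the enzyme that rose, held 5 capital stretches in this window, of which 2 were the E-box CACGTG. Pfkp and Hk1, which fell, held 4 each, and Aldoa held 1. These are the highest counts of each gene, chosen among 2 windows for Ldha, 1 for Pfkp, 3 for Aldoa and 2 for Hk1. The other Ldha window held 2 stretches, the other Hk1 window 0, and the remaining Aldoa windows 1 and 0. ACGTG or GCGTG was found in 16 of the 20 windows of the 10 enzymes, against 43.8% of all 32851 windows. Some windows of Eno1, Aldoa and Pfkm overlap and repeat the same sites, so the 20 are not separate sequences. Their GC content ran from 36.7% to 69.0%, and the windows of all genes were not matched to them in GC content. ACGTG alone was found in 9 of the 20, against 19.6% of all windows. CACGTG was found in 2 of the 20, one of Ldha and one of Pfkm, against 7.15% of all windows. These matches describe letters in the windows and are not evidence of binding.

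Hexokinases catalyse the entry step. Hk1 (ENSMUSG00000037012, chromosome 10 of GRCm38, 62268855 to 62379908, minus strand) encodes the broadly expressed isoenzyme of brain that binds mitochondria. Its FPKM values were 53.0, 51.2 and 51.2 with shlucif, 37.2, 39.5 and 37.3 with shArf1-1 and 43.3, 39.2 and 42.7 with shArf1-2. All 6 Arf1-deficient libraries lay below the shlucif libraries. The log2 fold change was -0.44 (standard error 0.05, edgeR adjusted p = 7.46e-07), with -0.50 for shArf1-1 and -0.38 for shArf1-2. Hk2 (ENSMUSG00000000628, chromosome 6, 82725025 to 82774454, minus strand) encodes the inducible isoenzyme typical of muscle and tumours. It was at 17.0, 16.6 and 16.6 FPKM with shlucif, 11.7, 14.5 and 12.6 FPKM with shArf1-1 and 15.8, 13.8 and 13.9 FPKM with shArf1-2. Again no Arf1-deficient library reached the shlucif range. The log2 fold change of Hk2 was -0.35 (standard error 0.07, edgeR adjusted p = 0.000415), with -0.43 for shArf1-1 and -0.28 for shArf1-2. Hk1 made up 75.6% ± 0.110 of the summed FPKM of Hk1 and Hk2 with shlucif, 74.6% ± 1.49 with shArf1-1 and 74.2% ± 1.06 with shArf1-2 (SD, n = 3 each), and these shares overlapped between the groups. The sum of the pair was 68.6 ± 1.28 FPKM with shlucif, 51.0 ± 2.66 FPKM with shArf1-1 and 56.2 ± 3.07 FPKM with shArf1-2 (SD, n = 3 each).

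Phosphofructokinase is built from subunits named for liver (Pfkl), muscle (Pfkm) and platelet (Pfkp), and the 3 genes behaved differently. Pfkp (ENSMUSG00000021196, chromosome 13, 6579768 to 6648777, minus strand) was at 23.3, 24.3 and 23.3 FPKM with shlucif, 14.6, 15.4 and 14.9 FPKM with shArf1-1 and 17.1, 19.5 and 17.0 FPKM with shArf1-2. The 3 groups did not overlap, and shArf1-1 was lowest. Pfkp changed on the log2 scale by -0.59 (standard error 0.07, edgeR adjusted p = 4.69e-07), the largest of the 10. With each hairpin alone it was -0.71 for shArf1-1 and -0.48 for shArf1-2. Pfkp overlaps Pitrm1, a mitochondrial peptidase gene, and 4.87% of its 75-base transcript stretches occur there too.

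Pfkm (ENSMUSG00000033065, chromosome 15, 98092589 to 98132451, plus strand), the highest of the 3 in FPKM, was at 63.4, 63.6 and 63.5 FPKM with shlucif. It was at 57.0, 61.0 and 56.4 FPKM with shArf1-1 and 59.4, 60.4 and 58.4 FPKM with shArf1-2. The shlucif values were tightly grouped and lay above all others. Its log2 fold change was small, -0.18 (standard error 0.05, edgeR adjusted p = 0.00324). With shArf1-2 alone it was -0.17 (edgeR adjusted p = 0.00499), and this call was lost when libraries were scaled by size alone (adjusted p = 0.0833). It was also lost by limma on log2 FPKM with a pseudocount of 1 or 0.1 (limma adjusted p = 0.0657 and 0.0653).

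Pfkl (ENSMUSG00000020277, chromosome 10, 77986947 to 78010083, minus strand) was at 23.8, 21.0 and 19.6 FPKM with shlucif, 25.8, 27.2 and 23.6 FPKM with shArf1-1 and 24.6, 23.0 and 25.5 FPKM with shArf1-2. One shlucif library, replicate 1, lay within the Arf1-deficient range. In the pooled fit the log2 fold change was 0.15 (standard error 0.07, edgeR adjusted p = 0.0619), and it was 0.19 (adjusted p = 0.0151) for shArf1-1 and 0.11 (adjusted p = 0.16) for shArf1-2. Leaving out 1 library moved the pooled value between 0.092 without shlucif replicate 3 (adjusted p = 0.328) and 0.24 without shlucif replicate 1 (adjusted p = 0.00891). It passed the threshold in 2 further cases, since without shArf1-1 replicate 3 it was 0.17 (adjusted p = 0.0417) and without shArf1-2 replicate 2 it was 0.18 (adjusted p = 0.0249). The shArf1-2 value ranged from 0.050 without shlucif replicate 3 (adjusted p = 0.572) to 0.197 without shlucif replicate 1 (adjusted p = 0.0102). The shArf1-1 call was in turn lost without shlucif replicate 2 or 3 (adjusted p = 0.0711 and 0.117) and without shArf1-1 replicate 1 or 2 (adjusted p = 0.0522 and 0.0851).

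The FPKM shares of Pfkl and Pfkp among the 3 phosphofructokinase genes differed between the groups. No protein was measured, so these shares do not give the makeup of the enzyme. Pfkl was 19.8% ± 1.62 of the summed FPKM of the 3 genes with shlucif, 25.9% ± 0.894 with shArf1-1 and 24.0% ± 1.47 with shArf1-2 (SD, n = 3 each). Pfkp was 21.7% ± 0.651, 15.2% ± 0.479 and 17.6% ± 1.18 in the same groups. Neither share overlapped between Arf1-deficient and shlucif libraries, whereas the share of Pfkm, between 57.4% and 59.7% in every library, did. In FPKM, Pfkl exceeded Pfkp in 1 of 3 shlucif libraries and in 6 of 6 Arf1-deficient libraries. This order rests on the listed lengths, 6675 bases for Pfkl and 13401 bases for Pfkp. In read counts Pfkp was the highest of the 3 in every library. With shlucif it had 4256 to 4358, Pfkm 2842 to 2921 and Pfkl 1787 to 2194. The summed level of the 3 genes was 109 ± 2.03 FPKM with shlucif, 98.6 ± 4.46 FPKM with shArf1-1 and 102 ± 1.11 FPKM with shArf1-2 (SD, n = 3 each). Shares and sums are given as descriptions, with no test.

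**Figure D3:**
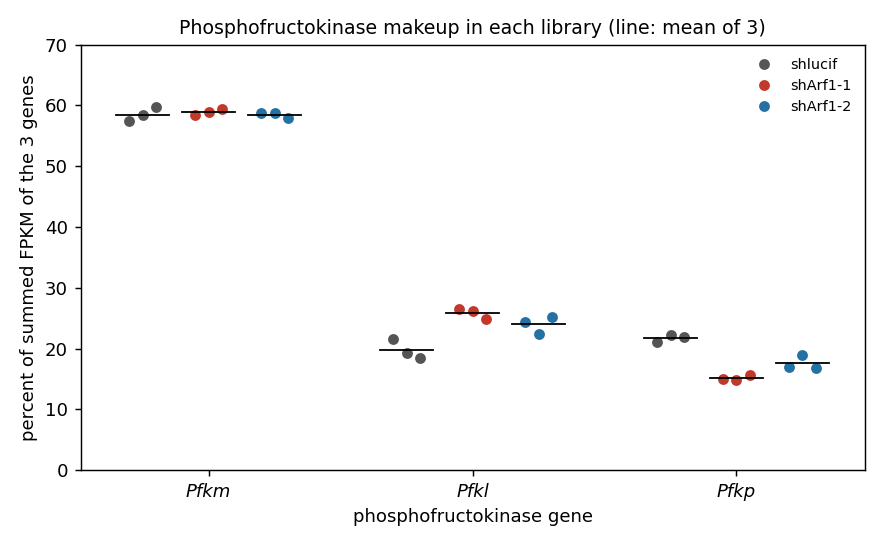
Percent of the summed FPKM of Pfkm, Pfkl and Pfkp that each gene contributed (vertical axis, from 0), per library and hairpin. Points are libraries and lines are means of 3. Pfkm stays between 57.4% and 59.7%, while Pfkl lies higher and Pfkp lower in all 6 Arf1-deficient libraries.

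Aldolase cleaves the doubly phosphorylated sugar into a pair of triose phosphates. The main Aldoa row (ENSMUSG00000030695, chromosome 7, 126795234 to 126800751, minus strand) was at 276, 259.8 and 273 FPKM with shlucif, 199, 206 and 193 FPKM with shArf1-1 and 202, 188 and 201 FPKM with shArf1-2. The Arf1-deficient libraries lay well below the shlucif libraries and the hairpins overlapped each other. On the log2 scale the change was -0.51 (standard error 0.05, edgeR adjusted p = 2.15e-08), with -0.49 for shArf1-1 and -0.52 for shArf1-2. The other row named Aldoa (ENSMUSG00000114515, chromosome 7, 126800790 to 126809108, minus strand) is a neighbouring locus just upstream with 2 annotated transcripts and between 80 and 163 counts. Its log2 fold change of -0.39 (standard error 0.16, edgeR adjusted p = 0.0338) was -0.16 (adjusted p = 0.421) without shlucif replicate 1, where it had the 163 counts.

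Pgk1 (ENSMUSG00000062070, chromosome X, 106187100 to 106203699, plus strand) makes the first ATP of the pathway. It was at 183, 173 and 168 FPKM with shlucif, 165, 161 and 167 FPKM with shArf1-1 and 156, 147 and 163 FPKM with shArf1-2. The gap between the groups was narrow, with a shlucif library at 168 and a shArf1-1 library at 167 FPKM. The log2 fold change was -0.19 (standard error 0.05, edgeR adjusted p = 0.00447), with -0.14 (adjusted p = 0.0187) for shArf1-1 and -0.24 (adjusted p = 0.000172) for shArf1-2. The shArf1-1 call was lost without shlucif replicate 1 (adjusted p = 0.13) and under scaling by library size (adjusted p = 0.117). An offset for gene length also lost it, without and with a replicate block (edgeR adjusted p = 0.0633 and 0.0672). So did limma on log2 FPKM with a pseudocount of 1 or 0.1 (limma adjusted p = 0.124 and 0.122). Of the 75-base stretches of Pgk1, 52.8% occur in other transcripts, chiefly Pgk1-rs7 and Gm5537, which are not rows of the table, so its counts depend on how shared reads were assigned.

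Eno1 (ENSMUSG00000063524, chromosome 4, 150236721 to 150248879, plus strand) encodes the enolase found in most tissues. It was at 196.9, 174.6 and 181 FPKM with shlucif, 156, 164 and 149.6 FPKM with shArf1-1 and 169.6, 161 and 174.6 FPKM with shArf1-2. The highest shArf1-2 value, 174.57 FPKM, lay just under the lowest shlucif value, 174.62 FPKM. Eno1 changed on the log2 scale by -0.24 (standard error 0.05, edgeR adjusted p = 0.000671), with -0.29 for shArf1-1 and -0.20 for shArf1-2. Eno1b, a near-identical copy, shares 22.6% of the 75-base stretches of Eno1 and held between 2571 and 3637 counts. Reads may have been split between them, which makes the levels of both uncertain. Summed, the pair ran from 1158 to 1299 CPM (counts scaled to the library total, without TMM) with shlucif. It ran from 1038 to 1112 CPM with shArf1-1 and from 1103 to 1174 CPM with shArf1-2. On this scale the sum overlapped between the groups. On TMM-normalised counts, the scale used above to count overlaps, the Arf1-deficient sums all lay below the shlucif sums. Eno1b gave a log2 value of -0.04 (standard error 0.05, edgeR adjusted p = 0.479), and this value was positive when libraries were scaled by size alone.

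Pkm (ENSMUSG00000032294, chromosome 9, 59656368 to 59679375, plus strand) encodes both pyruvate kinase M isoforms, which a gene-level count cannot separate. It was at 248, 221 and 224 FPKM with shlucif, 227, 239 and 219.8 FPKM with shArf1-1 and 199, 197 and 206 FPKM with shArf1-2. The shArf1-1 libraries fell within or beside the shlucif range and the shArf1-2 libraries below it. In the pooled fit the log2 fold change was -0.17 (standard error 0.07, edgeR adjusted p = 0.0305), with -0.07 (adjusted p = 0.241) for shArf1-1 and -0.27 (adjusted p = 2.95e-05) for shArf1-2. The pooled call did not hold without shlucif replicate 1 (adjusted p = 0.212) or without shArf1-2 replicate 1, 2 or 3 (adjusted p = 0.0602, 0.0555 and 0.0563). It was kept in 6 of 12 other settings. Those that lost it included scaling by library size (adjusted p = 0.129) and an offset for GC content (adjusted p = 0.216). Of its 75-base stretches, 17.8% occur in transcripts of 3 other genes that are not rows of the table.

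Ldha (ENSMUSG00000063229, chromosome 7, 46841475 to 46855627, plus strand), whose product favours the formation of lactate, was at 324, 299.9 and 318 FPKM with shlucif. It was at 444, 446 and 421 FPKM with shArf1-1 and 415, 386 and 415 FPKM with shArf1-2. All 6 Arf1-deficient libraries stood above the 3 shlucif libraries. On the log2 scale the change was 0.36 (standard error 0.05, edgeR adjusted p = 1.13e-05), with 0.42 (adjusted p = 6.84e-09) for shArf1-1 and 0.30 (adjusted p = 5.59e-06) for shArf1-2. The ratio of Ldha to Pkm in FPKM was 1.36 ± 0.0562 with shlucif, 1.91 ± 0.0413 with shArf1-1 and 2.02 ± 0.0612 with shArf1-2 (SD, n = 3 each). The summed FPKM of the 10 enzymes was 1351 ± 53.8 with shlucif, 1336 ± 39.1 with shArf1-1 and 1285 ± 43.4 with shArf1-2 (SD, n = 3 each), and it overlapped between the groups. Without Ldha the sum was 1037 ± 42.8, 899 ± 26.4 and 879.6 ± 27.1 FPKM in the same order, and the Arf1-deficient libraries lay below all shlucif libraries.

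Separate tests were made for each hairpin and for their difference. With shArf1-1, 7 of the 10 enzymes were lower and 2 were higher, against 34.4% and 33.1% of all genes tested. With shArf1-2, 8 were lower and 1 was higher, against 32.6% and 30.9% of all genes tested. These comparisons share the 3 shlucif libraries, so they are not independent of each other. The test of the difference between the hairpins called 2 of the 10, Pfkp and Pkm, against 14.4% of all genes tested. Pfkp was 0.24 higher on the log2 scale with shArf1-2 than with shArf1-1 (standard error 0.05, edgeR adjusted p = 0.002). Pkm was lower with shArf1-2, with a log2 difference of -0.20 (standard error 0.05, edgeR adjusted p = 0.00735). For the other 8 the log2 difference lay between -0.12 for Ldha and 0.15 for Hk2, with standard errors of 0.05 to 0.07. Hk2 passed the test without shArf1-1 replicate 2 (0.24, adjusted p = 0.017), and Hk1 passed it without shArf1-2 replicate 2 (0.17, adjusted p = 0.0488).

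**Figure D4:**
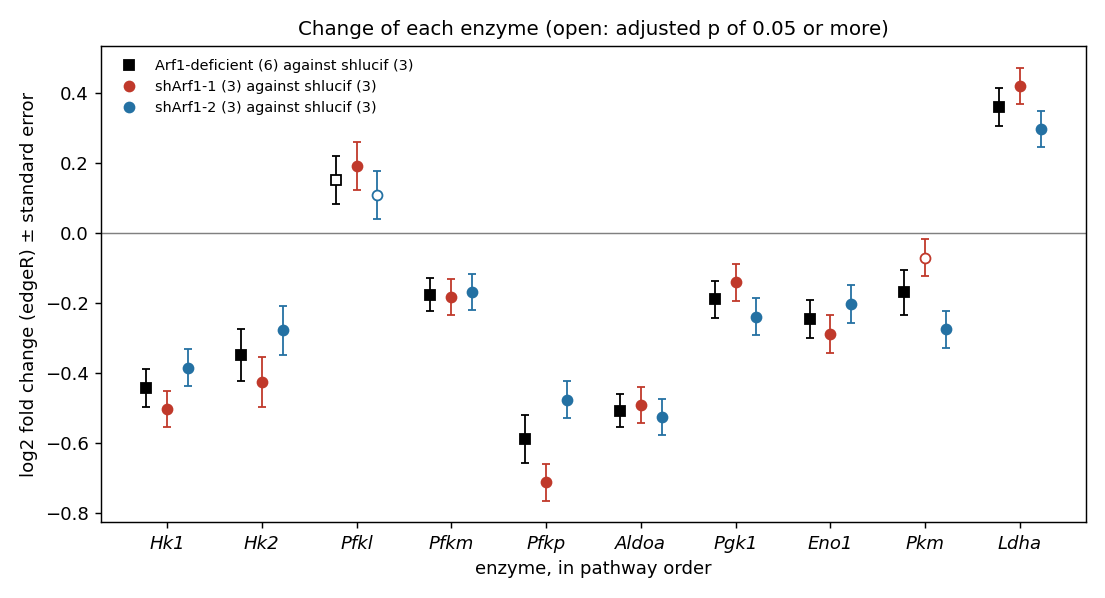
Log2 fold change of each enzyme (vertical axis) with its standard error, for both hairpins together and for each alone, in pathway order. Filled symbols have an edgeR adjusted p under 0.05. The 2 open symbols of Pfkl and the open shArf1-1 symbol of Pkm mark values that missed it.

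Other genes for the same steps are given next, apart from Eno1b above, which did not pass the test. Hk3, a hexokinase best known from white blood cells, had between 378 and 436 counts with shlucif and at most 9 in any Arf1-deficient library (log2 fold change -6.62, standard error 0.19, edgeR adjusted p = 8.88e-16). Adpgk, an ADP-dependent glucokinase, was lower, with a log2 value of -0.42 (standard error 0.06, edgeR adjusted p = 8.03e-06). Hkdc1, a further hexokinase, had at most 23 counts (log2 fold change 0.42, standard error 0.46, edgeR adjusted p = 0.437). Aldoc, the aldolase of brain, went from 7.03 ± 0.801 FPKM with shlucif to 1.80 ± 0.183 FPKM with shArf1-1 and 2.69 ± 0.643 FPKM with shArf1-2 (SD, n = 3 each). Its log2 fold change was -1.70 (standard error 0.17, edgeR adjusted p = 2.13e-07). Aldoa was 97.5% of the summed FPKM of the pair with shlucif, 99.1% with shArf1-1 and 98.7% with shArf1-2.

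Eno2, the neuron-specific enolase, went from a mean of 26.5 FPKM with shlucif to 11.97 FPKM with shArf1-1 and 12.2 FPKM with shArf1-2 (SD 0.713, 1.19 and 1.02, n = 3 each). The log2 fold change was -1.20 (standard error 0.07, edgeR adjusted p = 1.54e-11). The muscle enolase Eno3 gave a log2 value of -0.31 (standard error 0.12, edgeR adjusted p = 0.0328), a call that 6 of 12 other settings did not keep. Eno1 was 83.7% ± 0.634 of the summed FPKM of the 3 enolases with shlucif, 89.0% ± 0.206 with shArf1-1 and 89.0% ± 1.31 with shArf1-2 (SD, n = 3 each). Pklr, the liver and red cell pyruvate kinase, had at most 12 counts, and its call (log2 fold change 1.79, edgeR adjusted p = 0.0143) was lost without shlucif replicate 1 or 2 (adjusted p = 0.055 and 0.0794). Ldhb, the lactate dehydrogenase subunit of heart, and Pgk2, the kinase of testis, were at 0 counts in all 9 libraries. A count of 0 allows up to 3 counts, or 0.268 CPM in the smallest library.

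Of 17 further glycolysis genes in the table, these isoenzymes included, 13 were tested, 7 were lower and 3 were higher, against 32.9% lower and 31.6% higher over all genes tested, and the median log2 fold change was -0.21. Gapdh, the triose phosphate dehydrogenase, changed by -1.097 on the log2 scale (edgeR adjusted p = 7.26e-10). With shlucif Gapdh averaged only 18.9 FPKM, while Pgk1 averaged 175 FPKM. Gapdh has many processed copies, and sequence shared with them was not checked here. Pgam2, the muscle phosphoglycerate mutase, rose by 1.25 (standard error 0.18, edgeR adjusted p = 4.5e-06) from between 38 and 65 counts with shlucif to at most 158 in an Arf1-deficient library. The following 3 genes of steps without a member were picked after their values were seen. Gpi1, the isomerase after hexokinase, was at -0.21 on the log2 scale (standard error 0.05, edgeR adjusted p = 0.000571). Tpi1, the triose phosphate isomerase, was at 0.04 (standard error 0.05, edgeR adjusted p = 0.476), and Pgam1, the widely expressed mutase, was at 0.32 (standard error 0.05, edgeR adjusted p = 2.54e-05).

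Of 8 sugar and lactate carrier genes in the table, 7 were tested, 4 were lower and 2 were higher, against 32.9% lower and 31.6% higher over all genes tested. The 4 that fell were the glucose transporters Slc2a1, Slc2a3, Slc2a4 and Slc2a8. Slc2a3, the main neuronal glucose transporter and here the most abundant of them, went from 62.4 ± 0.970 FPKM with shlucif to 38.4 ± 0.829 FPKM with shArf1-1 and 36.7 ± 0.971 FPKM with shArf1-2 (SD, n = 3 each). This gave a log2 fold change of -0.80 (standard error 0.05, edgeR adjusted p = 3.72e-11). Slc2a1, the transporter of most dividing cells, gave a log2 value of -1.31 (standard error 0.09, edgeR adjusted p = 1.53e-10). Slc16a1, the other gene called higher, lost its call under the GC content offset (adjusted p = 0.674) and without any 1 of the shlucif libraries (adjusted p = 0.0506 to 0.0537), and is named after its values were seen. Bsg, the chaperone of the lactate carriers, was at -0.074 (edgeR adjusted p = 0.198), and Slc16a7 was at 0 counts in every library. Slc2a8 changed by -0.87 and the insulin-responsive Slc2a4 by -2.20, the latter from at most 138 counts. Slc16a3, the carrier that exports lactate, rose by 0.60 on the log2 scale (standard error 0.05, edgeR adjusted p = 8.85e-09), from 65.5 ± 3.16 FPKM with shlucif to 100.3 ± 3.08 FPKM with shArf1-1 and 107 ± 2.91 FPKM with shArf1-2 (SD, n = 3 each).

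**Figure D5:**
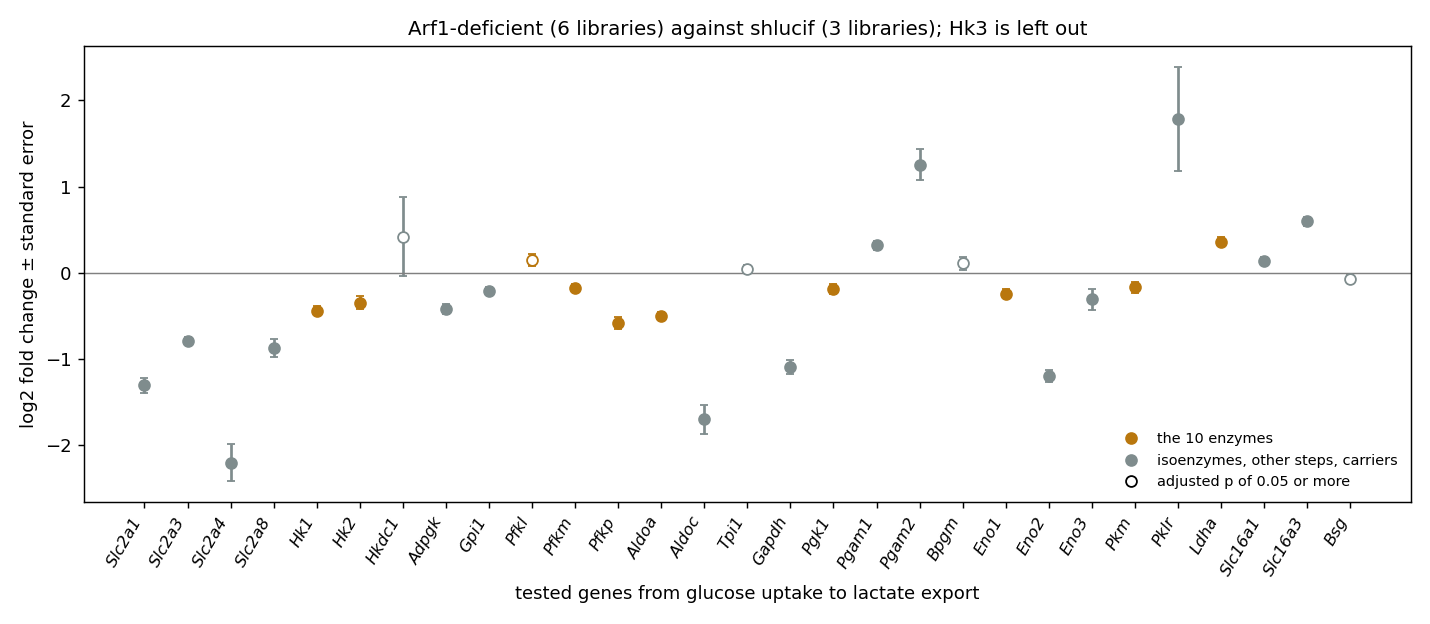
Log2 fold change with its standard error in Arf1-deficient against shlucif libraries (vertical axis), for tested genes ordered from glucose uptake to lactate export. Hk3, at -6.62, is left out for scale. The 4 glucose transporters lie below 0, Ldha and the lactate exporter Slc16a3 lie above it, and Bsg lies at -0.074.

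The counts of the following lists stand against the same 32.9% lower and 31.6% higher over all genes tested. Of the 5 genes for the bifunctional Pfkfb enzymes and Tigar, which set the level of the main activator of phosphofructokinase, 2 were higher, 0 were lower and 3 missed the threshold. Pfkfb2 rose by 1.32 on the log2 scale (standard error 0.18, edgeR adjusted p = 2.22e-06), from at most 57 counts with shlucif. Among 14 genes for the entry of pyruvate into mitochondria, 12 were tested, 6 were lower and 1 was higher. Pdk1 and Pdk2, kinases that switch off pyruvate dehydrogenase, fell by 1.90 and 1.31 on the log2 scale (edgeR adjusted p = 3.24e-07 and 1.33e-05). Pdhx, a structural subunit of that complex, had a log2 fold change of 0.25 (edgeR adjusted p = 0.0104). This value was 0.18 (adjusted p = 0.0965) without shlucif replicate 2 and 0.17 (adjusted p = 0.0675) under the GC content offset. The 8 pentose phosphate genes held 5 lower and 1 higher. Pgd, which makes NADPH, rose by 0.40 (edgeR adjusted p = 2.76e-05), and Rpia, which isomerises ribose phosphate, fell by 0.76 (edgeR adjusted p = 8.83e-07). H6pd, the enzyme that starts this route inside the endoplasmic reticulum, had between 40 and 56 counts with shlucif and at most 1 in an Arf1-deficient library.

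Of 6 gluconeogenesis genes, 2 were tested, and Pck2, which makes phosphoenolpyruvate in mitochondria, was lower by 0.40 (log2 fold change -0.40, edgeR adjusted p = 7.78e-06). The 6 genes that draw serine or glycerol phosphate from glycolysis held 2 lower and 1 higher. Phgdh, the entry enzyme of serine synthesis, went from a mean of 323 FPKM with shlucif to 204 with shArf1-1 and 233 with shArf1-2. Its log2 fold change was -0.62 (edgeR adjusted p = 5e-08). Psph, the last enzyme of that branch, rose by 0.51 (edgeR adjusted p = 1.4e-06), and the mitochondrial Gpd2 fell by 0.30 (edgeR adjusted p = 0.00212).

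Of 15 regulators of glycolytic genes, 14 were tested, 7 were higher and 5 were lower, against 31.6% and 32.9% of all genes tested. Myc, an activator of many glycolytic genes, went from 40.7 ± 1.98 FPKM with shlucif to 81.5 ± 1.76 FPKM with shArf1-1 and 73.2 ± 1.57 FPKM with shArf1-2 (SD, n = 3 each). The change on the log2 scale was 0.86 for Myc (standard error 0.06, edgeR adjusted p = 7.41e-10) and 0.87 for Mycn, its relative in neuroblastoma (standard error 0.22, edgeR adjusted p = 0.00796). Mycn differed between the hairpins, at 1.17 with shArf1-1 and 0.50 with shArf1-2 (log2 difference -0.67, edgeR adjusted p = 2.02e-08). Epas1, a hypoxia-inducible factor, had between 15 and 41 counts with shlucif and at most 3 in an Arf1-deficient library, and Egln3, a prolyl hydroxylase, had between 45 and 53 and at most 6. Hif1a, its partner Arnt and the hydroxylase Egln1, which marks Hif1a for removal, were added after their values were seen. Hif1a had a log2 fold change of -0.53 (edgeR adjusted p = 4.05e-07), Arnt of -1.097 (edgeR adjusted p = 8.49e-11) and Egln1 of 0.84 (edgeR adjusted p = 3.8e-10). Of 17 hypoxia targets outside glycolysis, 14 were tested, 7 were lower and 2 were higher, against the same shares. The largest falls were in Ndrg1 (log2 fold change -1.80, edgeR adjusted p = 2.15e-08) and the vasodilator peptide gene Adm (log2 fold change -1.21, edgeR adjusted p = 0.000778). Those that rose were P4ha2, a collagen prolyl hydroxylase subunit (log2 fold change 0.51, edgeR adjusted p = 1.4e-05), and Car12, a carbonic anhydrase (log2 fold change 0.28, edgeR adjusted p = 0.00385).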

How the data were processed

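RNA-seq of 9 N2a libraries was analysed from a deposited table in which the authors gave an unnormalised integer read count and an FPKM value per gene and library. Per the labels, poly(A) RNA was selected and broken into fragments before library construction. The submitters' processing notes name mm10. The aligner, the counting tool and the use of strand are not given in the sources used here. The table's coordinates did not match GRCm38, so positions were taken by identifier from the GENCODE M21 annotation of GRCm38. All nonzero FPKM values equalled the count divided by listed length and library total within a relative tolerance of 0.001. Lines of broken annotation text, 8 in number, were left out. Columns named shArf1 were taken as shArf1-1 and columns named shArf2 as shArf1-2, the only group remaining. Columns of pathway and ontology annotation were not used.

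Deposited counts were tested with edgeR 4.0.16 in R 4.3.3 (filterByExpr, TMM, robust glmQLFit, glmQLFTest), with Benjamini-Hochberg adjustment over 12448 genes and a threshold of 0.05. A fit of 6 Arf1-deficient against 3 shlucif libraries gave the main comparison, and a fit of 3 groups gave each hairpin and their difference. The main fit treats libraries of both hairpins as replicates of 1 condition, so differences between the hairpins add to its spread. Replicates of a group differed beyond sampling noise (chi-square per degree of freedom 2.99 to 8.61). Alternatives were library size or upper quartile scaling, DESeq2 1.42.0, no filter or at least 10 counts in every library, limma 3.58.1 on log2 FPKM with a pseudocount of 1 or 0.1, a block for replicate number, offsets for gene length and GC content, the average of the hairpin contrasts and leaving out each library. The tests were checked on simulated counts with few changed genes, the same spread for all genes and no difference between hairpins. That setting is simpler than these data, so the check does not cover their wide changes. The members and gene lists were chosen with earlier results of these data known. Genes outside the 10 enzymes were named when they shared a step with one, when they were called with an absolute log2 fold change of at least 0.5 among other glycolysis, Pfkfb and carrier genes, or as at most the 2 largest changes in each direction in other lists, and some of them are not reported here. One list gene was found under a newer symbol. Stretches of 75 bases were compared between GENCODE M21 transcripts to find shared sequence. The number of libraries, 3 per group, limits the precision.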

Additional observations from a re-analysis of the deposited data

Results flagged for a closer look

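The test of the difference between the hairpins called 2 of the 10 enzymes, against 14.4% of all genes tested. Pfkp had a log2 difference of 0.24 between shArf1-2 and shArf1-1, from a mean of 15.0 FPKM with shArf1-1 to 17.9 FPKM with shArf1-2. Pkm had a log2 difference of -0.20, from 228.6 FPKM with shArf1-1 to 200.9 FPKM with shArf1-2. Arf1 itself was at 128 FPKM with shArf1-1 and 165 FPKM with shArf1-2, and its part in either difference was not tested.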

How the results depend on the processing

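In the comparison of Arf1-deficient with shlucif libraries, 8 of the 10 enzymes kept their direction and their side of the threshold under all 21 alternatives, and the exceptions were Pfkl and Pkm. The number of enzymes higher was 2 in place of 1, with Pfkl added, under library size scaling, the GC content offset, limma on both FPKM scales and the average of the hairpin contrasts, and it was between 1 and 2 when a library was left out. The number lower was 7 or 8 throughout. Of all 12448 genes tested, 3933 were higher and 4094 lower in the main fit. Library size scaling gave 4555 and 3626, the GC content offset 3904 and 4267, and the average of the hairpin contrasts 4210 and 4427. Limma gave 4494 and 3632 with a pseudocount of 1, and 4531 and 3614 with 0.1. Leaving out a library gave 3509 to 3942 higher and 3747 to 4177 lower, of 12598 to 12665 genes tested. For shArf1-1 alone, leaving out a library gave between 1 and 2 enzymes higher. Over all genes it gave 3850 to 4058 higher, against 4124 in the main fit. For shArf1-2 alone, 2 were higher under library size scaling and under the GC content offset. Between 1 and 2 were higher when a library was left out. Over all genes, 4540, 3875 and 3536 to 3647 were higher in the same order, against 3843 in the main fit. Between the hairpins, 2 were lower in place of 1 under the GC content offset, with Ldha added (log2 difference -0.12, edgeR adjusted p = 0.0459). Over all genes that offset called 1231 lower, against 929 in the main fit. When a library was left out, between 1 and 2 of the enzymes were higher, and 570 to 1008 of all genes, against 869. Reversed values were all near 0. Eno1b was 0.021 under library size scaling, 0.021 under the GC content offset, 0.00088 under the gene length offset, 0.0013 under the replicate block with that offset and 0.021 by limma on both FPKM scales. Pkm with shArf1-1 was 0.017 under the GC content offset. Without 1 library each, the difference between the hairpins ranged from -0.011 to 0.054 for Pfkm and from -0.059 to 0.0064 for Aldoa. Replicate numbers did not pair the libraries, since correlations of same-numbered libraries ran from -0.082 to 0.094 and 4 of 9 libraries correlated best with their own number. With the replicate block Pkm was at -0.17 (edgeR adjusted p = 0.0519), the less abundant Aldoa row was at -0.38 (edgeR adjusted p = 0.0535), and the block changed no other call among the 10 enzymes in this comparison. Library size scaling moved the median log2 fold change of all genes to 0.066, and the causes of these shifts were not tested. Levels between genes rest on listed lengths, and counts of Pgk1, Eno1 and Pkm on reads shared with copies. Smaller shares of the stretches of Pfkm, Pfkp, Ldha, Hk1 and Aldoa also occur in other genes.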
